A study of Mus musculus with 17 samples.

Results

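The mitochondrial genome of the mouse encodes 13 mRNAs, 2 rRNAs and 22 tRNAs, and all 37 had a row among the 23461 genes of the table. They were chosen by symbol, as the genes whose identifier maps to a symbol starting with mt-, with no measured value used. The samples were hepatocytes sorted by FACS from male mice aged 2 to 3 months, in 4 groups. These were 5 wild type untreated samples, 5 wild type samples after carbon tetrachloride (CCl4, a solvent toxic to the liver), 4 Yap/Taz knockout untreated samples and 3 Yap/Taz knockout samples after CCl4. CCl4 was dosed at 1 ug/g, 7 times at intervals of 3 days, and cells were taken 3 days after the final dose. YAP and TAZ are transcriptional coactivators of the Hippo pathway; no source used here gives the alleles, the driver of the knockout or any vehicle control. The labels do not say that each sample came from its own animal, so p-values measure the spread between these samples.

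Mitochondrial DNA is transcribed from both strands into long precursors that cover many genes, which are then cut, mostly at the tRNAs that stand between them. The mRNAs all encode subunits of the respiratory chain or ATP synthase: the mt-Nd genes belong to complex I, mt-Cytb to complex III, the mt-Co genes to complex IV, and mt-Atp6 and mt-Atp8 to ATP synthase. The rRNAs and tRNAs serve the translation of those mRNAs inside the mitochondrion. The amount of each mature RNA is set by its stability as well as by transcription, and hepatocytes are rich in mitochondria.

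Totals ran from 11266420 to 24775863 counts per sample. Yap1 had 37.4 to 73.6 CPM (counts scaled to a common library size) in the wild type samples and 0.536 to 8.04 in the knockout samples, and Wwtr1, the gene of TAZ, had 9.86 to 23.4 and 1.20 to 7.09. Neither gene overlapped between genotypes. The 9 hepatocyte markers read were present in every group, and Alb, the gene of serum albumin, had 57256 to 107994 CPM. Knockout CCl4 replicate 3 stood apart: its 12 macrophage markers summed to 3814 CPM, against 109 and 334 in the other samples of its group, and its 12 endothelial markers to 876 CPM, against 165 and 143. In this bulk RNA fewer cells of a type and less RNA per cell cannot be told apart.

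Genes of the mitochondrial genome overlap one another and have near-identical copies in the nucleus, which bears on what each count holds. The sequences of 3 overlaps, of 1 gene with an identical nuclear copy, and of the most and 1 of the least counted tRNAs are shown for that reason, from the GENCODE transcripts, with mm10 coordinates. mt-Nd4l (chrM:9877-10173, plus strand) is given whole, with the 7 bases it shares with mt-Nd4 in capitals. The 43 bases shared by mt-Atp8 and mt-Atp6 lie at chrM:7927-7969 on the plus strand, with the start codon of mt-Atp6 in capitals. mt-Nd5 and mt-Nd6 lie on opposite strands and overlap by 14 bases at chrM:13552-13565, read here on the plus strand, with the last 3 bases of mt-Nd5 in capitals. mt-Ts1, a serine tRNA at chrM:6870-6938 on the minus strand, ends with the complement of the last 3 bases of mt-Co1, in capitals. mt-Td, an aspartate tRNA at chrM:6942-7011 on the plus strand, overlaps no gene.
mt-Nd4l: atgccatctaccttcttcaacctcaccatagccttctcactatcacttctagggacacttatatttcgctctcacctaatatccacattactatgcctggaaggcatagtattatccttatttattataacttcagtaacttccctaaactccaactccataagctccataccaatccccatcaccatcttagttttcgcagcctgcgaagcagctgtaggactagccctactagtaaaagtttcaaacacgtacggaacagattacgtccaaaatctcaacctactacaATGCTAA
mt-Atp8 and mt-Atp6: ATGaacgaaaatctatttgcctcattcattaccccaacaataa
mt-Nd5 and mt-Nd6: ttaatctcgagTAA
mt-Ts1: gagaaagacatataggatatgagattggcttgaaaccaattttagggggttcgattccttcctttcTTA
mt-Td: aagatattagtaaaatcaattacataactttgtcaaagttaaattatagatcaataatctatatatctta

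The share of all counts that fell on the 37 genes varied widely between samples of 1 group. In wild type untreated replicates 1 to 5 it was 12.9, 20.1, 10.2, 5.32 and 30.7%. In wild type CCl4 replicates 1 to 5 it was 10.01, 2.96, 9.81, 1.98 and 8.63%. In knockout untreated replicates 1 to 4 it was 5.69, 7.18, 8.87 and 8.38%, and in knockout CCl4 replicates 1 to 3 it was 7.49, 4.25 and 34.3%. Every pair of groups overlapped. The highest shares were in a wild type untreated and a knockout CCl4 sample, and the lowest were wild type CCl4 replicates 2 and 4. The knockout untreated samples were the most alike. Exact (Clopper-Pearson) 95% binomial intervals were at most 0.0242 percentage points either side of these shares and cover counting error only, so the spread was far wider than counting error.

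Group means of the share were 15.8% ± 9.90 (SD, n = 5) for untreated and 6.68% ± 3.89 (n = 5) for CCl4 wild type samples. In the knockout they were 7.53% ± 1.42 (n = 4) without CCl4 and 15.3% ± 16.5 (n = 3) with it. As a sum over the genes described here the share was not tested. Without knockout CCl4 replicate 3 the mean of its group was 5.87%, and without wild type untreated replicate 5 that group's mean was 12.1%. mt-Co1, the core subunit of cytochrome c oxidase, alone took 0.636 to 10.8% of all counts in a sample. The major urinary protein genes, which also hold a large share of male liver RNA, took 3.79 to 14.8% of counts in the untreated samples and 0.143 to 2.13% in the CCl4 samples, and with their counts left out of the total the 4 group means were 17.1, 6.81, 8.27 and 15.4%, in the same order.

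**Figure D1:**
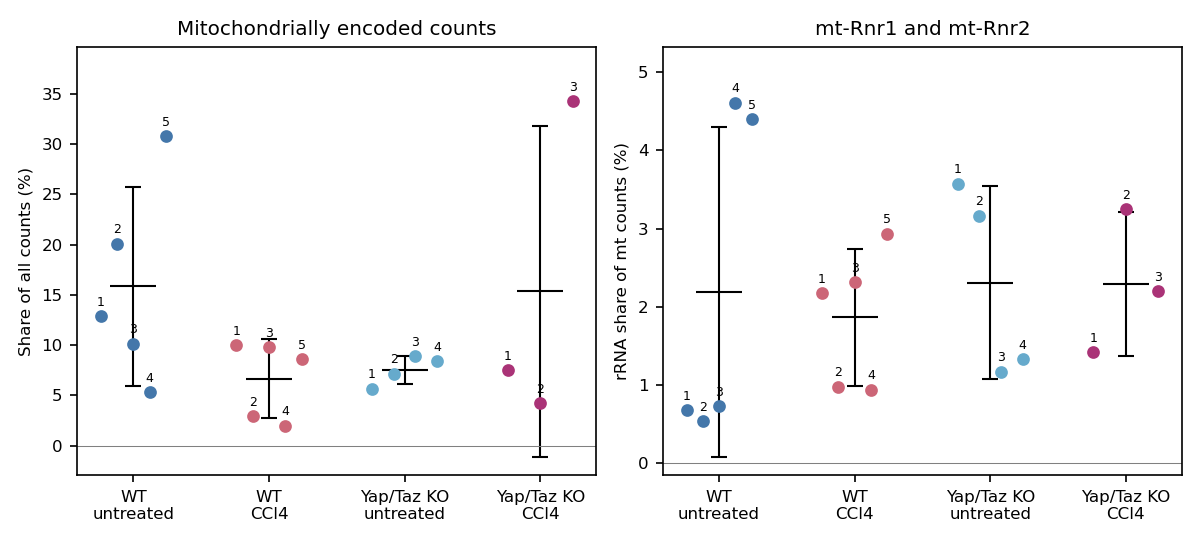
Left, share of all counts on the 37 mitochondrially encoded genes (%); right, share of those counts on mt-Rnr1 and mt-Rnr2 (%). Each point is 1 sample with its replicate number, black lines are the mean and SD of the group. Knockout CCl4 replicate 3 (34.3%) lies far above the rest of its group, wild type untreated replicate 5 (30.7%) is the highest of its widely spread group, and the groups overlap in both panels.

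Repeated CCl4 in wild type animals asks what the injury changes while Yap and Taz are present. In these samples 12 of the 13 mRNAs had a lower fitted level after CCl4, with a median log2 fold change over the 13 of -1.69, against -0.01 over all 13721 genes tested. None passed the test at an adjusted p under 0.05. mt-Co1 had 49042, 77418, 35409, 14578 and 118126 CPM in wild type untreated replicates 1 to 5 and 25044, 8100, 23102, 5690 and 20682 CPM after CCl4. The highest 4 values were all untreated, but untreated replicate 4 lay below 3 of the CCl4 samples. Its log2 fold change was -1.83 ± 0.65 (SE; edgeR adjusted p = 0.194). The only mRNA with a positive value, mt-Nd4l, is described separately, with its identical nuclear copy.

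Of the 35 genes of the set that were tested, none passed in wild type after CCl4, where 0.853% of all genes did. At an unadjusted edgeR p under 0.05 there were 17, all lower: 12 mRNAs, mt-Rnr1 and 4 tRNAs, against 14.7% of all genes in either direction and 7.16% lower. Of the 35, DESeq2 called 1 and limma voom 0. The genes of 1 sample rose and fell together, so these 17 are far from 17 separate observations. The smallest adjusted p belonged to mt-Tp, the proline tRNA beside the control region. It had 63.0, 113.2, 47.0, 17.4 and 138 CPM untreated and 22.1, 11.4, 25.2, 8.59 and 23.6 CPM after CCl4. Only untreated replicate 4 lay within the CCl4 range. Its log2 fold change was -2.06 ± 0.66, with an adjusted p of 0.158 by edgeR and 0.0301 by DESeq2.

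The rRNA of the small ribosomal subunit, mt-Rnr1, had 389, 478, 324, 1038 and 8648 CPM untreated and 783, 71.7, 709, 60.5 and 764 CPM after CCl4 in wild type. A single sample, untreated replicate 5, set its mean: the log2 fold change was -2.19 ± 1.02 (edgeR adjusted p = 0.332), and -0.22 (adjusted p = 0.933) without that sample. The median of the 13 mRNAs moved less when it was left out, from -1.69 to -1.16.

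In the Yap/Taz knockout, CCl4 against untreated gave the opposite sign. All 13 mRNAs had positive values by edgeR, with a median log2 fold change of 1.12, and the median was 0.34 by limma voom; none of the 35 genes passed, where 19.0% of all genes did. No member reached an unadjusted edgeR p under 0.05, against 30.3% of all genes, and DESeq2 and limma voom also called 0. mt-Co1 had 14290, 22730, 27777 and 26911 CPM in knockout untreated replicates 1 to 4 and 19310, 9176 and 125680 CPM in CCl4 replicates 1 to 3. CCl4 replicate 3 was far above every other sample of this comparison, and replicate 2 was below all of them. The fitted log2 fold change was 1.16 ± 0.76 (edgeR adjusted p = 0.340), and -0.69 without replicate 3 (adjusted p = 0.594). The median of the 13 mRNAs turned likewise, to -0.69. The smallest adjusted p was that of mt-Nd3, a membrane subunit of complex I, at 1.55 ± 0.77 (0.191), and -0.73 without replicate 3. Macrophage and endothelial markers were highest in this same sample, as given above, and their part in the result was not tested.

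Of the tRNAs in that comparison, 12 of the 20 tested had positive and 8 had negative values. mt-Tk, the lysine tRNA between mt-Co2 and mt-Atp8, was the only tested member of the whole set whose samples did not overlap after CCl4, with 1.054 to 1.88 CPM untreated and 0.419 to 0.945 CPM after it; 10.8% of all tested genes were separated in that direction. Its adjusted p by edgeR was 0.365. So few reads fell on it, 6 to 100 per sample over the series, that counting error is large.

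Knockout against wild type without CCl4 asks what loss of Yap and Taz changes in unchallenged hepatocytes. All 13 mRNAs were lower in the knockout by fitted value, with a median log2 fold change of -1.32, and none of the 35 genes passed (0.933% of all genes did). An unadjusted edgeR p under 0.05 was reached by mt-Nd5 and mt-Tq, both lower, 2 of 35 against 8.77% of all genes in either direction and 4.85% lower; DESeq2 and limma voom called 0. mt-Co1, with the untreated values given above, changed by -1.36 ± 0.70 (edgeR adjusted p = 0.625). The knockout range of 14290 to 27777 CPM crossed only wild type replicate 4. mt-Nd5, a proton-pumping subunit of complex I, had 7700, 14731, 5294, 3217 and 24894 CPM in wild type and 2808, 4204, 4602 and 4033 CPM in knockout samples, again with only wild type replicate 4 inside the knockout range; the log2 fold change was -1.51 ± 0.69 (adjusted p = 0.535).

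mt-Tq, the glutamine tRNA on the light-strand side, was separated between the untreated genotypes, with 8.47, 11.1, 6.85, 8.33 and 44.4 CPM in wild type and 4.08, 5.99, 4.95 and 3.602 CPM in knockout. Of all genes tested, 1.89% were separated in that direction. The log2 fold change was -1.77 ± 0.75 (edgeR adjusted p = 0.465). Without wild type untreated replicate 5 it was -0.90, and the median of the mRNAs -0.77.

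After CCl4, knockout against wild type gave positive values for 12 of the 13 mRNAs, with a median of 1.27. No gene of the set passed by edgeR, where 11.8% of all genes did. Unadjusted, 6 of the 35 had an edgeR p under 0.05, all higher (mt-Nd1, mt-Co1, mt-Co2, mt-Co3, mt-Nd3 and mt-Ts1), against 25.9% of all genes in either direction and 15.6% higher. DESeq2 called 3 of the 35 (mt-Co2, mt-Co3 and mt-Ts1) and limma voom 0. mt-Co3, a core subunit of cytochrome c oxidase, had 6356.5, 2514, 7444, 2044 and 5402 CPM in wild type CCl4 replicates 1 to 5 and 5962.5, 2266 and 49754 CPM in knockout CCl4 replicates 1 to 3. Knockout replicates 1 and 2 lay inside the wild type range and replicate 3 lay far above it. The log2 fold change was 2.02 ± 0.76 (edgeR adjusted p = 0.0979), and -0.21 without replicate 3 (adjusted p = 0.929). mt-Co1 gave 1.64 ± 0.72 (0.157) and -0.21 without it, and the mRNA median turned to -0.33. Without knockout CCl4 replicate 1 instead, the mRNA median was 1.62 and 2 of the 35 passed by edgeR. Without replicate 2 the median was 1.74 and 4 passed. The shares of all genes that passed in these fits and by DESeq2 are not given here.

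The CCl4 effect was compared between genotypes by the interaction term. The 13 mRNAs had positive values, with a median of 2.61 log2 units, and 17 of the 35 genes had an unadjusted edgeR p under 0.05, all positive, against 17.1% of all genes in either direction and 10.4% positive. None passed after adjustment, where 1.09% of all genes did; DESeq2 called 4 (mt-Co1, mt-Co2, mt-Co3 and mt-Ts1) and limma voom 0. mt-Co1 gave 3.00 ± 1.00 (edgeR adjusted p = 0.130) and mt-Nd3 3.22 ± 1.02 (0.111). Without knockout CCl4 replicate 1, mt-Nd3 alone passed (edgeR adjusted p = 0.0422). Without replicate 3 the mRNA median was 1.04, and without both samples above 30% mitochondrial counts it was 0.50. The 4 comparisons share samples, so their values for 1 gene are not separate evidence.

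The remaining complex I mRNAs followed the same samples. mt-Nd1, a subunit of the membrane arm next to the quinone site, had 5910.3, 10940.3, 4880.0, 2819 and 25152 CPM in untreated and 4561, 1148, 3916, 767 and 3786 CPM in CCl4 wild type replicates 1 to 5. The knockout had 2718, 4553, 4521 and 4172 CPM of it without CCl4 and 3562, 2280.5 and 21472 CPM with it. For mt-Nd2, a proton-pumping subunit, wild type values were 9336, 16254, 7652, 3183 and 30756 CPM untreated and 5549, 1777, 5802, 1061.5 and 4770.5 CPM after CCl4. Both were highest in wild type untreated replicate 5 and lowest in wild type CCl4 replicate 4. mt-Nd2 in the knockout was at 3548.5, 5236, 6431 and 6191 CPM untreated and at 4619.9, 2021 and 20820.3 CPM after CCl4. Their edgeR log2 fold changes for CCl4 in wild type were -1.81 ± 0.68 and -1.83 ± 0.65, with adjusted p of 0.214 and 0.194.

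mt-Nd3 is the complex I mRNA with the fewest reads besides mt-Nd4l. Wild type values were 809, 1219, 905, 440.1 and 3429 CPM untreated and 457, 376, 598, 221 and 485.5 CPM after CCl4, and knockout values 305, 579.9, 649 and 573 CPM untreated and 420.3, 213.5 and 3996 CPM after CCl4. It was lowest in knockout CCl4 replicate 2 and highest in replicate 3, so that 1 group of 3 spanned the whole series. mt-Nd4, another proton-pumping subunit, had 11504.5, 20278, 8643, 4995 and 43829.5 CPM in untreated and 9142, 2044, 8772, 1226 and 7705 CPM in CCl4 wild type samples. Its knockout values were 5078.5, 8614, 8000.2 and 7099 CPM untreated and 5283, 3080.3 and 25316 CPM after CCl4. mt-Nd4 differed from mt-Nd3 in having its highest value in wild type untreated replicate 5.

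After CCl4, mt-Nd5 had 5697, 1209.4, 5558.5, 866 and 5272 CPM in wild type and 3550.0, 2273 and 14398 CPM in the knockout. mt-Nd6, the only mRNA of the light-strand transcript, had 2075, 3994, 1328, 898 and 7014.5 CPM in untreated and 1572, 381, 1719, 272 and 1491 CPM in CCl4 wild type samples. Knockout mt-Nd6 stood at 838, 1581, 1255 and 1125 CPM untreated and at 1089, 636 and 6093.4 CPM after CCl4. The mRNA from the other strand thus had its highest and lowest values in the same samples as mt-Nd1 and mt-Nd2. Its log2 fold change for CCl4 in wild type, -1.49 ± 0.67 (edgeR adjusted p = 0.312), lay within 1 standard error of theirs.

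mt-Cytb, the only mitochondrially encoded subunit of complex III, had 15346, 24673, 11602, 5779.5 and 46876 CPM in untreated and 10069, 2574, 9403, 1799 and 8238 CPM in CCl4 wild type samples. The knockout had 5339.7, 9108, 9963 and 9409 CPM untreated and 7149, 3546 and 42245 CPM after CCl4. Wild type untreated replicate 5 and knockout CCl4 replicate 3 again had the highest values. mt-Co2, which carries the copper site that receives electrons from cytochrome c, had 12628.5, 20226, 9635, 3984 and 35374 CPM in untreated and 6993, 2082, 6420.4, 1482 and 5785 CPM in CCl4 wild type samples. Its knockout values were 4260.5, 7431, 9051 and 8801 CPM untreated and 6179, 2742 and 42666 CPM after CCl4. All 3 complex IV mRNAs had their highest value in knockout CCl4 replicate 3, while mt-Cytb had it in wild type untreated replicate 5. For knockout against wild type after CCl4 mt-Co2 gave 1.92 ± 0.75 (edgeR adjusted p = 0.111). mt-Co3 had, without CCl4, 12920.1, 21282, 11353, 3841 and 34385 CPM in wild type and 3732, 6399.8, 9077 and 8175 CPM in the knockout.

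The ATP synthase mRNAs share 1 transcript and 43 bases. mt-Atp6 had 13733, 22171, 10639.7, 4538 and 40237 CPM in untreated and 8151, 2465, 9075, 1637 and 6915 CPM in CCl4 wild type samples, and 4899.6, 8387, 9151 and 8562 CPM and then 5968, 2657 and 29909.7 CPM in the knockout. mt-Atp8 had 3472, 5306, 2643, 986 and 8967 CPM in untreated and 1941, 584, 2332.6, 367 and 1682 CPM in CCl4 wild type samples, and 972, 1640.2, 2206 and 2034 CPM and then 1460.3, 595.5 and 5936.5 CPM in the knockout. Both had their lowest value in wild type CCl4 replicate 4 and their highest in wild type untreated replicate 5. The fitted changes for CCl4 in wild type were -1.69 ± 0.65 and -1.63 ± 0.64 (edgeR adjusted p = 0.226 and 0.243).

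mt-Rnr2, the rRNA of the large ribosomal subunit, had 599.8, 813, 486, 1358 and 10744 CPM in untreated and 1131, 179, 1295, 106 and 1436 CPM in CCl4 wild type samples. Knockout samples had 1058.5, 1341, 728 and 813 CPM of it untreated and 686, 592 and 5921 CPM after CCl4, and of mt-Rnr1 762, 1306, 374 and 368 CPM untreated and 246, 472 and 2864 CPM after CCl4. For both rRNAs the groups overlapped in each of the 4 comparisons, and no edgeR adjusted p was under 0.332 in them.

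**Figure D2:**
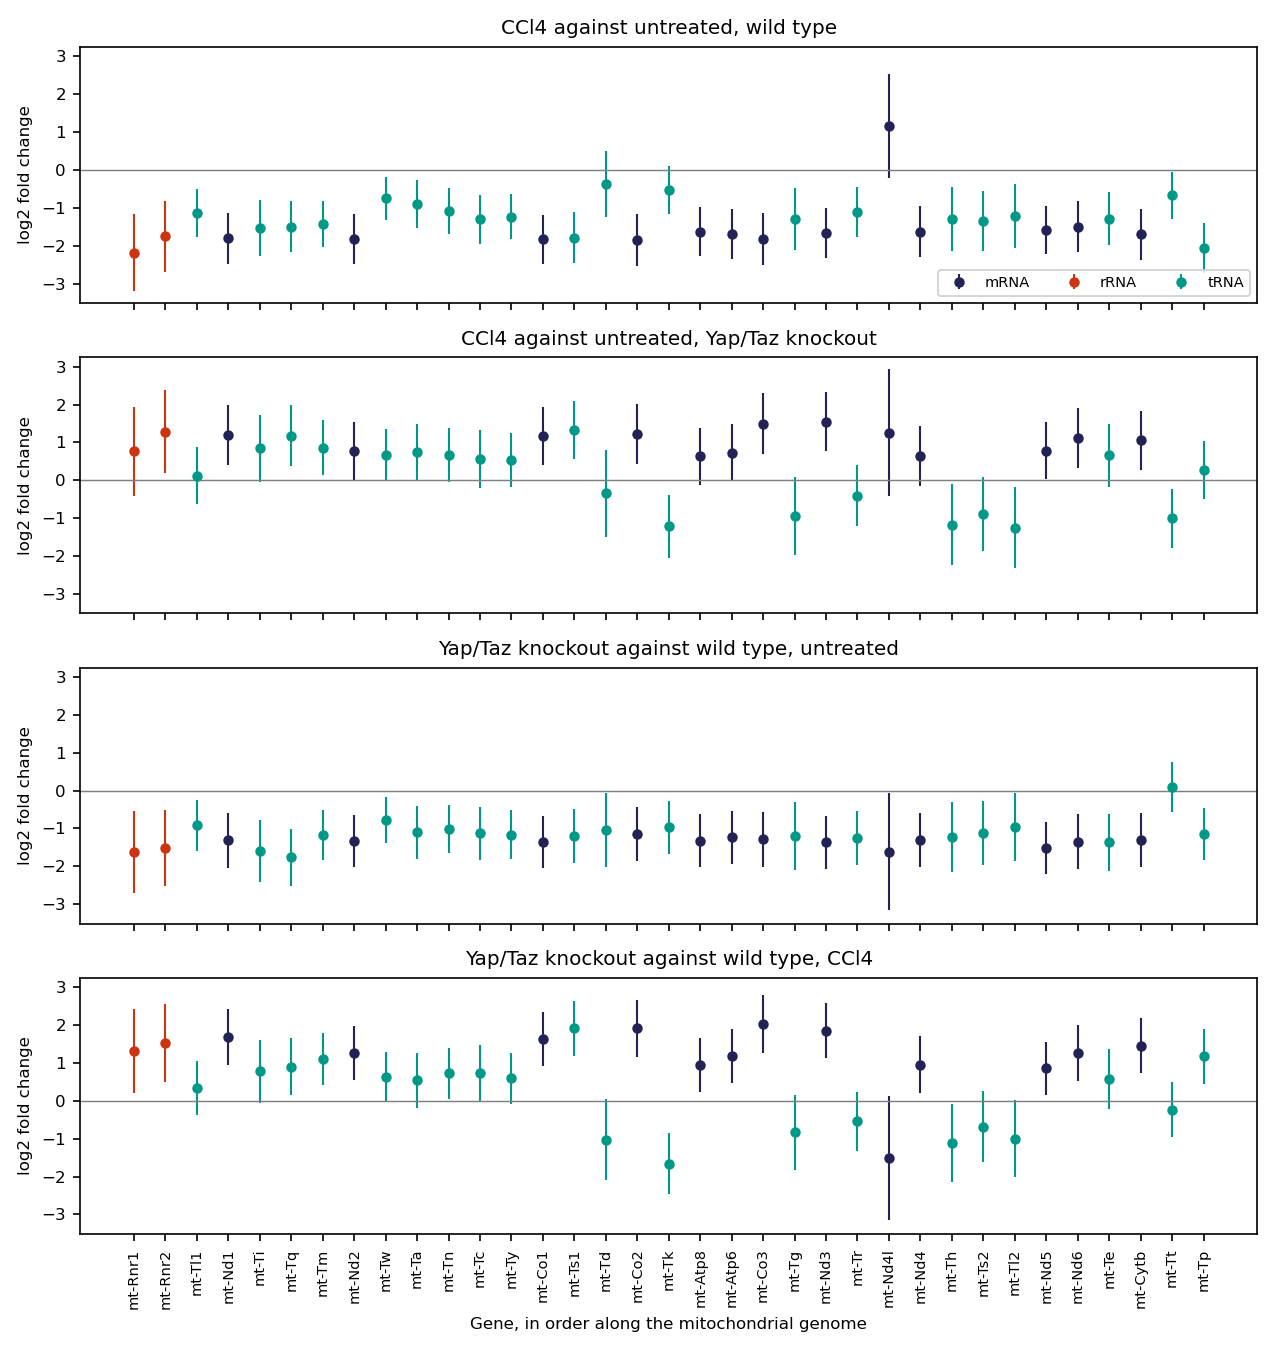
Log2 fold change and its standard error (edgeR) for the 35 tested genes in order along the mitochondrial genome, 1 panel per comparison, coloured by RNA class. The mRNA medians are -1.69, 1.12, -1.32 and 1.27 from top to bottom. The mRNAs lie close together for CCl4 in wild type and for the untreated genotypes, and spread more in the other panels (mt-Atp6 1.19 beside mt-Co3 2.02 for the genotypes after CCl4). mt-Nd4l has the opposite sign to the others for CCl4 in wild type and for the genotypes after CCl4, and several tRNAs of low count take the opposite sign in the CCl4 knockout panel and the CCl4 genotype panel.

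While the level of a single mRNA moved up to 35.8-fold between samples (mt-Nd4), the shares of the 12 mRNAs other than mt-Nd4l in mitochondrial mRNA counts moved by 1.155-fold (mt-Cytb) to 2.91-fold (mt-Nd3). mt-Co1 held 27.4 to 33.9% of the counts on mitochondrial mRNAs, mt-Cytb 10.2 to 11.8%, mt-Atp6 7.70 to 10.8% and mt-Co2 7.63 to 10.99% over all 17 samples. The within-group SD of log2 CPM was 1.12 to 1.23 for the 12 mRNAs other than mt-Nd4l, and that of their log2 share of mitochondrial mRNA only 0.0677 (mt-Cytb) to 0.434 (mt-Nd3). Samples with high or low mitochondrial counts were thus high or low for all 12 together. The shares are fractions of 1 sum, so they cannot vary independently.

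By the within-group SD of the log2 share, the least constant of the 12 were mt-Nd3, mt-Nd5 (0.270) and mt-Co3 (0.256). mt-Nd5 ranged from 3.71% in knockout CCl4 replicate 3 to 7.30% in wild type CCl4 replicate 5. mt-Nd3 held 0.511 to 1.49% of mitochondrial mRNA counts, with the highest values in wild type CCl4 replicates 2 (1.49%) and 4 (1.27%), the samples with the lowest mitochondrial share. mt-Co3 ranged from 7.20% in knockout CCl4 replicate 2 to 12.8% in replicate 3. Replicate 3 also had the highest share of mt-Co2 (10.99%) and the lowest shares of mt-Atp8 (1.53%), mt-Atp6 (7.70%), mt-Nd2 (5.36%), mt-Nd4 (6.52%) and mt-Nd5 (3.71%) of the series. It is the sample with the highest macrophage and endothelial marker sums; their part in this makeup was not tested.

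**Figure D3:**
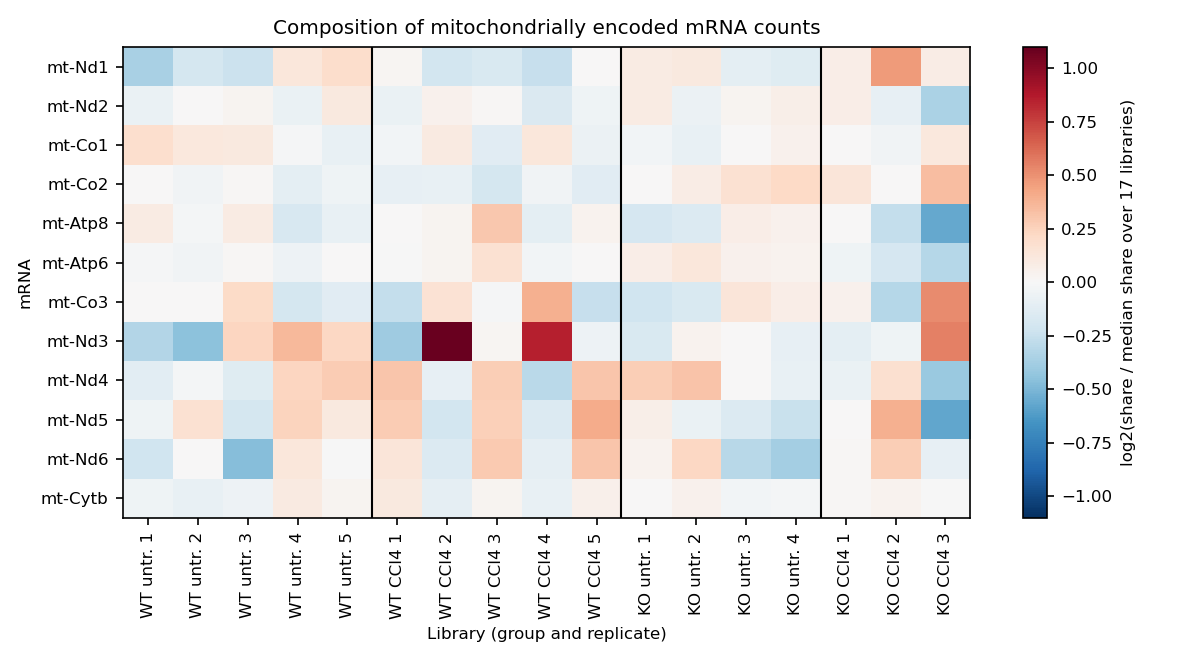
Share of each of 12 mRNAs (mt-Nd4l left out) in the counts on mitochondrial mRNAs of a sample, as log2 of its ratio to the median share over the 17 samples; columns are samples, lines part the groups, red is above and blue below the median. Most cells are pale; mt-Nd3 in wild type CCl4 replicates 2 and 4 (1.49 and 1.27%) and the column of knockout CCl4 replicate 3 stand out.

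Levels of different genes were compared per kilobase of gene, as CPM per kb. mt-Co1 was the highest in all 17 samples, with 3683 to 81346 CPM per kb and a median of 14953. mt-Atp6 (median 12315), mt-Co2 (10224), mt-Atp8 (9514), mt-Cytb (8219) and mt-Co3 (8163) followed. mt-Atp6 exceeded mt-Co2 in 13 of 17 samples, but mt-Cytb exceeded mt-Co3 in only 4, against the order of their medians. All 17 samples had mt-Co3 above mt-Nd4. The complex I mRNAs came lower, mt-Nd4 (5806), mt-Nd2 (5346), mt-Nd1 (4360), mt-Nd6 (2559), mt-Nd5 (2523) and mt-Nd3 (1646); mt-Nd4 exceeded mt-Nd2 in 8 of 17 samples and mt-Nd6 exceeded mt-Nd5 in 7. mt-Rnr2 and mt-Rnr1 were lower again, at medians of 514 and 500.2 CPM per kb, with mt-Rnr2 the higher in 9 of 17 samples.

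**Figure D4:**
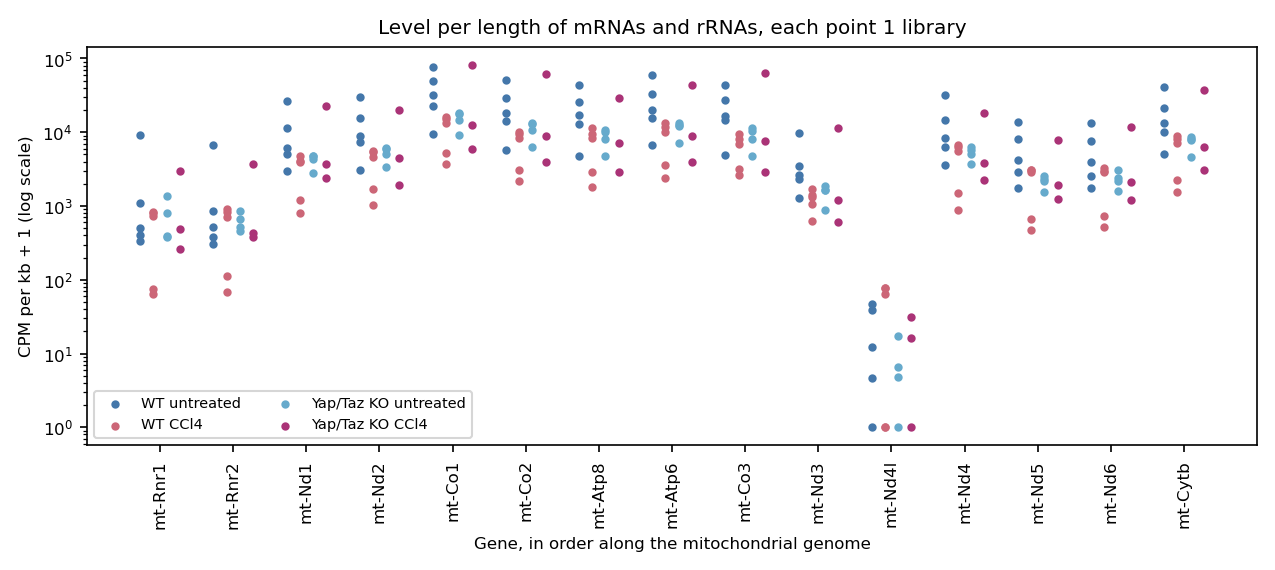
CPM per kb of gene, plus 1, on a log axis, for the mRNAs and rRNAs in order along the mitochondrial genome; each point is 1 sample, coloured by group. mt-Co1 is the highest in every sample (3683 to 81346), the rRNAs have lower medians than all mRNAs but mt-Nd4l, and mt-Nd4l has 0 counts in 5 samples.

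Ratios between 2 transcripts of a sample do not depend on library scaling, and 6 were tested in the 4 comparisons. By two-sided exact permutation tests with Benjamini-Hochberg adjustment over the 24 tests, none passed (adjusted p of 0.381 to 0.841), and 3 had an unadjusted p under 0.05. The smallest permutation p that the sample numbers allow was 0.00794 to 0.0286 over the 4 comparisons. After adjustment over 24 tests, a single test at its smallest p could therefore not have passed. mt-Nd1/mt-Cytb compares a gene near the start of the heavy-strand transcript with one near its end. It was 0.453, 0.446, 0.417, 0.426 and 0.460 in wild type CCl4 replicates 1 to 5 and 0.498, 0.643 and 0.508 in knockout CCl4 replicates 1 to 3. The groups did not overlap; the difference of log2 ratios was 0.31, with an exact permutation p of 0.0179, the smallest that 5 against 3 samples allows (adjusted 0.381). Untreated, the ratio was 0.385 to 0.537 in wild type and 0.443 to 0.509 in knockout, and the ranges overlapped.

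mt-Nd6/mt-Nd5 compares the only light-strand mRNA with its heavy-strand neighbour. In wild type it was 0.269, 0.271, 0.251, 0.279 and 0.282 without CCl4 and 0.276, 0.315, 0.309, 0.315 and 0.283 after it. The CCl4 samples were mostly above, with replicate 1 inside the untreated range, and the log2 difference was 0.15 (exact permutation p = 0.0317, adjusted 0.381). Knockout CCl4 replicate 3 had the highest ratio of the series, 0.423. The 2 genes share the 14 bases shown, and no source used here gives the strand setting of the counting, so antisense reads cannot be told apart in either gene. mt-Rnr2/mt-Rnr1, the 2 rRNAs of the mitochondrial ribosome, in wild type was 1.24 to 1.70 without CCl4 and 1.44 to 2.49 after it (log2 difference 0.35, exact permutation p = 0.0476, adjusted 0.381), and these ranges overlapped. The knockout had 1.03 to 2.21 without CCl4 and 1.26 to 2.78 after it.

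mt-Co1/mt-Co3, both subunits of complex IV, stayed between 2.53 and 4.05, and mt-Atp6/mt-Co3, which sit side by side on 1 precursor, between 0.601 and 1.31; the lowest value of each was in knockout CCl4 replicate 3. mt-Rnr2/mt-Co1 was the least constant ratio, from 0.0105 to 0.0932 (8.88-fold). It was 0.0122, 0.0105, 0.0137, 0.0932 and 0.0910 in wild type untreated replicates 1 to 5, so that its whole range fell within 1 group. The rRNAs took 0.535 to 4.61% of the mitochondrially encoded counts of a sample, and the mRNAs 94.8 to 98.9%. No source used here says whether libraries were selected for poly(A) or depleted of rRNA.

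The 22 tRNAs together took 0.458 to 0.699% of mitochondrially encoded counts. The 8 tRNAs annotated on the light-strand transcript held 78.4 to 92.5% of the tRNA counts and the 14 of the heavy-strand transcript the rest. The strand setting of the counting is not given, so reads from the opposite strand cannot be told apart in these counts. mt-Ts1, the serine tRNA shown above, held 29.1 to 63.7% of tRNA counts and mt-Te, a glutamate tRNA, 12.7 to 26.6%. mt-Td, the next gene after mt-Ts1 but on the other strand, had 0 to 30 counts in a sample. Of the light-strand tRNAs, mt-Te had 16.0 to 598 CPM, and mt-Ta, mt-Tn, mt-Tc, mt-Ty, mt-Tp and mt-Tq each had at most 138.1 CPM. The tRNAs of the heavy-strand transcript were led by mt-Tl1, a leucine tRNA behind mt-Rnr2, with 4.63 to 157 CPM; mt-Ti, mt-Tm, mt-Tw, mt-Th, mt-Tl2, mt-Ts2, mt-Tg, mt-Tr, mt-Tt and mt-Tk had at most 46.8 CPM each. mt-Tf and mt-Tv, at the start of the heavy-strand transcript around mt-Rnr1, had 0 to 27 and 0 to 30 counts and were too low to be tested. In wild type, mt-Ts1 had 344, 611, 263, 122 and 943 CPM without CCl4 and 206, 67.2, 163, 53.5 and 171 CPM after it. In the knockout it had 131, 224, 219.8 and 220.5 CPM without CCl4 and 161, 71.8 and 1265 CPM after it. Its extremes were in the same samples as those of mt-Co1, wild type CCl4 replicate 4 and knockout CCl4 replicate 3. In knockout against wild type after CCl4 it gave 1.92 ± 0.73 (edgeR adjusted p = 0.103), and -0.18 without knockout CCl4 replicate 3. It lies opposite the end of mt-Co1, and the counts do not part a mature tRNA from longer transcripts that cross it on either strand.

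mt-Nd4l, a small membrane subunit of complex I, had in wild type 136, 135, 17, 0 and 47 counts without CCl4 and 304, 0, 644, 0 and 590 counts after it. In the knockout it had 38, 0, 21 and 58 counts without CCl4 and 0, 253 and 57 counts after it. It was thus at 0 in 5 of 17 samples, while no other mRNA had fewer than 4525 counts in any sample. The nuclear gene Gm10222 (ENSMUSG00000067736, mm10 chr1:24612407-24612700, minus strand) is a copy of it with 294 bases, each identical to the sequence shown above. Gm10222 had 4192 to 86427 counts and 98.1 to 100% of the counts of the pair. Reads that match both cannot be assigned from their sequence.

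Per kilobase, mt-Nd4l alone was 0 to 0.0138 of mt-Nd4, its neighbour on the same precursor, and the pair together 0.531 to 0.889 of it. Gm10222 had the same signs as the medians of the mitochondrial mRNAs: its log2 fold changes were -1.67 for CCl4 in wild type, 0.51 for CCl4 in knockout, -1.39 for knockout against wild type untreated and 0.80 after CCl4. The value for CCl4 in the knockout was below those of all 13 mRNAs, which began at 0.64. mt-Nd4l alone gave 1.16 ± 1.37 for CCl4 in wild type (edgeR adjusted p = 0.756), and with the counts of Gm10222 added it gave -1.66 (adjusted p = 0.229). Its own value in the table is therefore uncertain in every comparison.

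**Figure D5:**
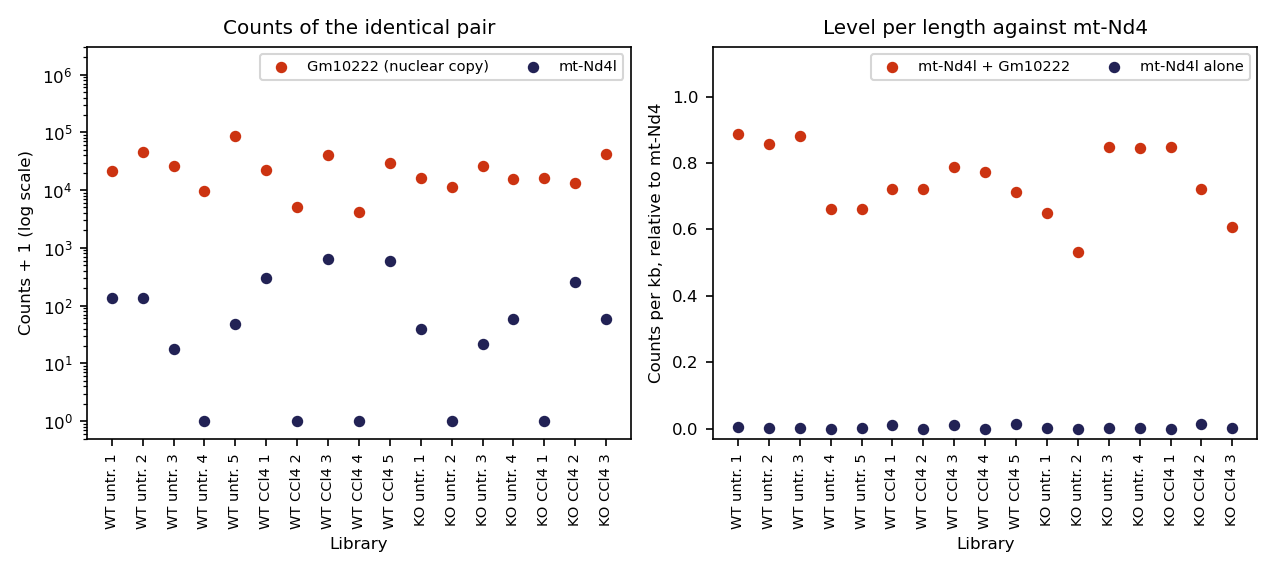
Left, counts plus 1 on a log axis of mt-Nd4l and its nuclear copy Gm10222 in each of the 17 samples; right, their level per kb relative to mt-Nd4, for mt-Nd4l alone and for the sum of both. Gm10222 holds 98.1 to 100% of the pair, and the sum is 0.531 to 0.889 of mt-Nd4 where mt-Nd4l alone is at most 0.0138.

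Other nuclear copies had few counts or were not analysed here. On chromosome 2, Gm13340 matches mt-Co1 over 1545 bases with 37 mismatches and had 76 to 4197 counts, Gm13339 matches 510 bases of mt-Nd2 with 17 mismatches and had 10 to 1746, and Gm13341 matches mt-Co2 with 16 mismatches and had 13 to 485. Beside Gm10222 on chromosome 1, annotated copies identical to all 678 bases of their mt-Atp6 match, 783 of mt-Co3, 681 of mt-Co2 and 876 of mt-Nd4 (Gm10925, Gm28437, Gm28661 and Gm28439) were not analysed here, nor were Gm28438 and Gm29216, which match parts of mt-Nd3 and mt-Co1 with 1 mismatch each. Whether reads of these 6 genes were counted under them is not known. With the 4 analysed copies counted as mitochondrial, the group means of the share were 16.1, 6.79, 7.64 and 15.5%.

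Nuclear genes of mitochondrial RNA metabolism and of the respiratory chain were set beside these values. In wild type after CCl4 and in the untreated knockout none of the 71 nuclear respiratory chain subunits passed by edgeR, where 0.853% and 0.933% of all genes did (medians of -0.28 and -0.12 log2). At an unadjusted edgeR p under 0.05 there were 15, all lower, and 0, against 7.16% and 4.85% of all genes lower; DESeq2 called 2 and 0, and limma voom 0 in both. For CCl4 in the knockout, 21 of 71 fell and none rose, with a median of -0.52 against 0.01 over all genes; 6.96% of all genes fell. Complex I, with 36 of the 71 genes, gave 13 of the 21. Complex III gave 3 of its 9, complex IV 2 of its 11 and ATP synthase 3 of its 15. Those of complex I included Ndufb5, an accessory subunit, at -0.73 ± 0.18 (edgeR adjusted p = 0.00843) and Ndufs7, a subunit of the electron path, at -0.93 ± 0.23 (0.00843). The Rieske protein Uqcrfs1 of complex III fell by 0.72 (adjusted p = 0.00989) and Cox7c of complex IV by 0.72 (0.00812). Against wild type after CCl4, 6 of 71 were lower and none higher, with a median of -0.32, where 4.21% of all genes were lower. Macrophage markers summed to 0.294 to 8.85 CPM in untreated and 109 to 3814 CPM in CCl4 knockout samples, and all 12 rose after CCl4 in the knockout. Endothelial (11 of 12) and stellate markers (9 of 10 tested) rose likewise, where 19.0% of all genes were called in either direction. Of the 9 hepatocyte markers 3 fell, with a median of -0.40, and 2 were lower than in wild type after CCl4. The part of these differences between cell type markers in the falls of the respiratory chain genes was not tested.

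Without knockout CCl4 replicate 3 the medians of these subunits kept their sign, at -0.65 and -0.49, with 13 and 1 called. Those of the mitochondrially encoded mRNAs turned, to -0.69 and -0.33, so the medians of both sets were then negative. The number called in the knockout was also 8 without knockout CCl4 replicate 2, 9 without knockout untreated replicate 2, and 13 without knockout untreated replicate 3 or 4. It was 1 with unscaled library totals, and 1 when only those groups entered the fit. Against wild type after CCl4 it was 2 and 3 without wild type CCl4 replicates 2 and 4, and 1 without knockout CCl4 replicate 2. The shares of all genes called in these fits are not given here. A loss of calls in this list therefore cannot be told from a loss over all genes.

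Of 10 factors of mitochondrial transcription, 3 fell after CCl4 in the knockout (Tfb2m, Mterf3 and Mterf4), where 6.96% of all genes did, and 1, Tfb2m, was lower than in wild type after CCl4, where 4.21% of all genes were. Tfb2m, which opens mitochondrial promoters together with the polymerase, gave -0.80 ± 0.23 (edgeR adjusted p = 0.0215) and -0.83 ± 0.22 (0.0229), and -0.71 (0.0943) and -0.75 (0.133) without replicate 3. Of 32 genes that process, modify or degrade mitochondrial RNA, 4 fell in the knockout after CCl4 (Mto1, Fastkd1, Hsd17b10 and Lrpprc) and 4 were lower than in wild type (Fastkd1, Lrpprc, Trmt10c and Mto1), against the same 6.96% and 4.21% of all genes. With unscaled totals or only the groups compared, no transcription and no processing gene was called in the knockout; against wild type no transcription gene and 1 processing gene were called. The called genes included Mto1, which modifies mitochondrial tRNAs (-0.85 ± 0.19, adjusted p = 0.00548), and Lrpprc, which stabilises mitochondrial mRNAs (log2 -0.78 ± 0.22 against wild type, 0.0276). Without knockout CCl4 replicate 3, 2 and 0 processing genes were called, and for transcription 1 and 0. Tfb2m also missed the threshold in the knockout without knockout CCl4 replicate 1 (edgeR adjusted p = 0.0773), and without untreated knockout replicate 1 (0.0593) or 2 (0.0610), and against wild type without the first of these (0.0696). Lrpprc missed it without knockout CCl4 replicate 3 (0.129) or wild type CCl4 replicate 2 (0.0684). No transcription factor of the list was called in the knockout without knockout untreated replicate 2, and 1 without knockout untreated replicate 3 or knockout CCl4 replicate 2. Of the processing genes, 2 fell when knockout CCl4 replicate 2, or knockout untreated replicate 2 or 4, was left out, and against wild type 0 were called without wild type CCl4 replicate 2 and 2 without wild type CCl4 replicate 3, 4 or 5 or knockout CCl4 replicate 2. For these lists too, the shares of all genes called in the other fits are not given here. None of the 16 tested genes of mitochondrial DNA replication passed in any comparison by edgeR; at an unadjusted p under 0.05 there were at most 3, for CCl4 in the knockout, where 30.3% of all genes had one. DESeq2 called 0 in each comparison, and limma voom called 1 for CCl4 in the knockout (Polg2, lower) and 0 in the others.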

How the data were processed

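The authors deposited 1 table of raw counts per gene, with 1 column for each of the 17 samples. STAR 2.4.1d and mm10 are named in the submitters' processing notes; the counting tool, its strand setting, the annotation and the handling of reads with several matches were not given in the sources used here. Replicate numbers are not said by the labels to pair samples.

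In R 4.3.3, edgeR 4.0.16 (filterByExpr, minimum count 10 and minimum total 15; TMM; robust quasi-likelihood F test) was run on all samples together with 1 mean per group, and Benjamini-Hochberg adjustment covered 13721 genes. Calls needed an adjusted p under 0.05. CPM use the TMM-scaled library size, except the sums over cell type markers. Those sums and the shares use unscaled totals. Of the 37 members 35 were tested. By rule, every mRNA and rRNA was given in each sample and tRNAs too where tested; of the tRNAs only those the results turn on are so given, the others by range. The 24 ratio tests were two-sided exact permutation tests. From each nuclear list, up to 3 genes with the smallest adjusted p in a comparison could be named, and all genes of a count of 4 or fewer. Positions and sequences came from GENCODE for mm10. DESeq2 1.42.0, limma 3.58.1 (voom), other scalings and filters, a replicate block and leaving out samples were the alternatives. The scripts were tested on simulated data. For genes drawn from all those tested, 19 to 39% of 2-fold and 56 to 66% of 4-fold changes were called over the 4 comparisons. Changes of such size can thus go uncalled. The recovery of mitochondrially encoded genes was not tested. The members were picked by symbol, but this gene set and the nuclear lists were chosen with earlier results of these data known. No sample was left out.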

Additional observations from a re-analysis of the deposited data

Results flagged for a closer look

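The share of mt-Atp6, the membrane channel subunit of ATP synthase, in the counts on mitochondrial mRNAs was 10.8% in wild type CCl4 replicate 3, far from the other samples of its group by Dixon's test; the nearest was 9.76% and the lowest 9.39%. The gap was 0.733 of the group's range, above the critical value of 0.710 for 5 samples. Of 66 groups of values checked this was the only 1 so marked, and chance marks about 1 in 20. The check covered groups of 4 and 5 samples only. The 3 knockout CCl4 samples, replicate 3 among them, were therefore not checked.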

How the results depend on the processing

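The number of mitochondrially encoded genes called was 0 in every comparison under RLE size factors, unscaled totals, totals and factors from nuclear genes, both other filters, limma voom, the fits of 2 groups (run for the 4 comparisons of 2 groups) and the added counts of Gm10222, an alternative chosen after the data were seen. DESeq2 called 1 for CCl4 in wild type, 3 for knockout against wild type after CCl4 and 4 for the interaction. Leaving out 1 sample at a time gave 0 to 4 for knockout against wild type after CCl4 (2 without knockout CCl4 replicate 1, 4 without replicate 2), 0 to 1 for the interaction (mt-Nd3 without knockout CCl4 replicate 1), and 0 elsewhere. With the replicate number as a block, 0 were called in each comparison; the median of the 13 mRNAs for CCl4 in the knockout was then 0.35, with 10 positive, and mt-Co1 gave -1.86 and 0.37 for CCl4 in wild type and knockout, and -0.94 and 1.29 for knockout against wild type without and with CCl4. The labels do not say that the numbers pair samples. The number of all genes called for CCl4 in wild type was 117, against 499 with DESeq2, 651 with unscaled totals and 49 with the block. For the other comparisons the numbers of all genes called under the alternatives are not given here.

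Without both samples above 30% mitochondrial counts, signs turned as without knockout CCl4 replicate 3 alone: for CCl4 in the knockout mt-Co1 gave -0.68 and mt-Nd3 -0.73, and against wild type after CCl4 mt-Co1 gave -0.21, mt-Co3 -0.21, mt-Ts1 -0.18 and mt-Nd3 -0.43. Over samples left out singly, the ranges were -0.69 to 1.65 and -0.73 to 2.06 for the first 2, and -0.21 to 2.13, -0.21 to 2.54, -0.18 to 2.42 and -0.43 to 2.36 for the others. mt-Nd4l for CCl4 in wild type gave -1.66 with Gm10222 added. Unscaled totals moved the median of all genes by 0.38 for CCl4 in wild type, 0.20 for CCl4 in knockout and 0.14 for the untreated knockout, without turning a mitochondrial mRNA median. No ratio passed under any alternative run, where a single test at its smallest possible p could not have passed either. For the nuclear lists, recomputed under alternatives chosen after the data were seen, the block called 8 respiratory chain genes lower after CCl4 in the knockout (21 without it) and 1 lower than in wild type (6 without it), and of the transcription and processing genes 1 each in the knockout and 0 against wild type. Low counts limit what can be said of mt-Nd4l and of several tRNAs; the effect of depth on the other results was not tested.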

Other observations

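The share of rRNA in mitochondrially encoded counts fell at 2 levels inside 3 of the groups, and the share of mt-Nd4 in mitochondrial mRNA counts ran with it. In wild type untreated replicates 1 to 5 the rRNA share was 0.677, 0.535, 0.728, 4.61 and 4.398%, and the mt-Nd4 share 7.96, 8.502, 7.86, 10.1 and 10.5%. In wild type CCl4 replicates 1 to 5 the rRNA share was 2.17, 0.976, 2.31, 0.939 and 2.93%, and the mt-Nd4 share 10.7, 8.09, 10.4, 7.03 and 10.7%. In knockout untreated replicates 1 to 4 the values were 3.57, 3.16, 1.17 and 1.33% for rRNA and 10.4, 10.7, 8.63 and 8.15% for mt-Nd4. Knockout CCl4 replicates 1 to 3 had 1.42, 3.25 and 2.20% rRNA and 8.18, 9.78 and 6.52% mt-Nd4. These levels cross genotype and treatment, and no batch is labelled. mt-Nd4 was not alone in this. In wild type untreated replicates 1 to 5 the mt-Cytb share was 10.6, 10.3, 10.5, 11.7 and 11.2%. The mt-Co3 share was 8.94, 8.92, 10.3, 7.80 and 8.21% in the same samples. In each of the 3 groups, samples with more rRNA had higher shares of mt-Nd1 and mt-Cytb and lower shares of mt-Co1 and mt-Co3. The shares are fractions of 1 sum, so they cannot vary independently. The pattern was seen in the data and was not tested.

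The nuclear copy Gm13339, 96.7% identical to its part of mt-Nd2, had 61, 137, 44, 182 and 1746 counts in wild type untreated replicates 1 to 5 and 353, 48, 735, 10 and 511 in wild type CCl4 replicates 1 to 5, also higher in the samples with more rRNA. In wild type without CCl4 the other analysed copies did not follow this. In wild type untreated replicate 4, Gm13341 and Gm10222 had their lowest counts of the group, 28 and 9673. Gm13340 had 474 there, below 707 in replicate 2. After CCl4 in wild type each of them was higher in replicates 1, 3 and 5 than in 2 and 4. In knockout untreated replicates 1 to 4, Gm13339 had 372, 268, 111 and 61 counts and Gm13340 had 667, 542, 420 and 301. Both were higher in replicates 1 and 2, which had more rRNA. Gm13341 (104, 65, 105 and 62) and Gm10222 (16145, 11518, 26598 and 15414) did not follow it there. These counts are not scaled to library size.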
